A study of Mus musculus with 3 samples.

Results

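The expressed processed pseudogenes of mouse macrophages are described here together with the genes they were copied from. A member is a gene of GENCODE M21 biotype processed pseudogene with a mean expected count of 10 or more over the 3 alignment-derived gene tables. The rule took 323 of 9941 processed pseudogenes (3.25%), out of 55536 annotated genes, and 7843 processed pseudogenes were listed at 0 expected counts in every library. Because the expected counts chose the members, their height is a description. Just inside the minimum were Gm6733 with a mean of 10.1, Gm12231 with 10.03 and Gm42776 with 10 counts, and just outside were Gm4459 with 9.96, Gm7887 with 9.95 and Gm14150 with 9.93. The median member had a mean of 28.7 counts, 69 members had 100 or more, and 7 had 1000 or more.

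The 3 libraries form 1 group, so no condition is contrasted. They are rRNA-depleted total RNA-seq of the cytosolic fraction of C57BL/6J bone marrow-derived macrophages that all received 100 ng/ml of lipid A for 12 h, were washed out for 12 h, and were taken at 0 min of the second lipid A stimulation. Sex and age were not collected. The labels number the libraries as biological replicates 1, 2 and 3, but the 3 biosamples carry 1 donor identifier and separate animals are not stated. Spreads and p-values therefore measure only the difference between these libraries, which may be technical. Gene rows held 28981178 to 53119941 alignment-derived counts and 33040841 to 62654318 read-derived counts per library. All 10 macrophage markers were at 10 TPM or more in every library, and none of 17 markers of other cell types was. The nuclear-retained RNAs Malat1 and Neat1 stood higher in replicate 3, at 158, 91.0 and 1343 TPM and at 16.8, 10.4 and 91.4 TPM in replicates 1, 2 and 3.

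A processed pseudogene arises when the mRNA of a parent gene is reverse transcribed and inserted elsewhere in the genome, so it usually lacks introns and carries no promoter of its own. Highly transcribed housekeeping genes, such as those of ribosomal proteins and glycolysis, have left many such copies in mammalian genomes. A young copy is nearly identical to the spliced parent mRNA, and a short read from a shared stretch cannot be assigned to either by its sequence. Quantifiers split such reads by a statistical estimate. Here 2 tables from the same reads can be set side by side, 1 made from alignments and 1 made directly from the reads on a transcript index.

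The sequences of a few members show what separates them from their parents. They are copied from the GENCODE M21 transcripts on GRCm38, 5′ to 3′ on the strand of the gene, and each pair shows the stretch of up to 120 bases of the parent's coding part with the most differences. Capitals mark bases that differ between the pseudogene and its parent. Gm6545, the second-highest member, aligned best to Fam111a, which encodes a protease with roles in DNA replication and antiviral restriction, and 33 of 120 bases differed between chr19:12528950-12529069 on the minus strand and coding bases 1524 to 1643 of Fam111a.
Gm6545: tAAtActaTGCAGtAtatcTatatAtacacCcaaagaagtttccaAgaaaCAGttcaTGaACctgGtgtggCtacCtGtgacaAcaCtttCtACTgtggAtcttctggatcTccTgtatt
Fam111a: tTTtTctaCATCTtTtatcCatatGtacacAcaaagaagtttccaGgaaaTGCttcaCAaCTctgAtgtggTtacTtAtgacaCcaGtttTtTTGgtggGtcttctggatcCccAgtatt
Gm6548 is a copy of Eef1a1, whose protein delivers aminoacyl-tRNA to the ribosome, and 10 of 120 bases differed between chr17:78850884-78851003 on the minus strand and coding bases 1175 to 1294.
Gm6548: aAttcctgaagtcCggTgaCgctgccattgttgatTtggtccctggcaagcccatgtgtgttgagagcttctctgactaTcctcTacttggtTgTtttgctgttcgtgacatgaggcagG
Eef1a1: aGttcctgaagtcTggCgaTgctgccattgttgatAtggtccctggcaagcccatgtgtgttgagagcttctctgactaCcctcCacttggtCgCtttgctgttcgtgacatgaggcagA
Gm12715, a copy of the gamma-actin gene Actg1, was added after its values were seen, because it was near 0 in 1 table. It differed at 4 of 1128 coding bases, 3 of them between chr4:103564146-103564265 on the plus strand and coding bases 745 to 864.
Gm12715: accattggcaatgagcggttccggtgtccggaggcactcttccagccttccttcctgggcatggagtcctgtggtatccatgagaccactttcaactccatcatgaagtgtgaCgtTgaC
Actg1: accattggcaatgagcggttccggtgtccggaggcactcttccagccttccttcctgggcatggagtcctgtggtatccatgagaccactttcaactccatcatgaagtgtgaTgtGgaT
Morf4l1-ps1, a copy of the chromatin gene Morf4l1, was also added after its values were seen, and was lower in the read-derived table in every library. It differed at 2 of 969 coding bases, 1 of them between chr16:24529793-24529912 on the plus strand and coding bases 400 to 519.
Morf4l1-ps1: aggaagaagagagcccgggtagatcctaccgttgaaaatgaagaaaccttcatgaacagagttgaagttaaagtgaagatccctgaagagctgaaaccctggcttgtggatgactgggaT
Morf4l1: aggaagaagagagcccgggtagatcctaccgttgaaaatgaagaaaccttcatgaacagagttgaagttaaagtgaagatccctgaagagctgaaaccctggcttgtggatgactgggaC
Gm7536 and Tpt1-ps3 had no base of their own to show. Gm7536 matched 444 coding bases of Rpl27a, a protein of the large ribosomal subunit, and the first 60 bases shown, chr3:24333068-24333127 on the plus strand, stand for both genes.
Gm7536: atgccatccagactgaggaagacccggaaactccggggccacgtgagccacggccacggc
Tpt1-ps3 matched all 519 coding bases of Tpt1, which encodes the translationally controlled tumour protein, and the first 60 bases, chr6:99878275-99878334 on the minus strand, stand for both.
Tpt1-ps3: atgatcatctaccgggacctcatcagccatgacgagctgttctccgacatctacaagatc

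Each member's transcript was compared in 2 ways, with a parent gene and with all other annotated genes. A parent was assigned to 308 members as the protein-coding gene with the best blastn alignment, over at least 70% of the pseudogene at 70% identity or more. Where the symbol names a parent before the suffix -ps, which held for 57 members, all 57 had the same parent by sequence. The other measure was the share of a pseudogene's words of 31 bases that no transcript of another annotated gene holds on either strand, called its own words below. Gm6545 had 98.6% own words, Gm6548 had 53.3%, Morf4l1-ps1 had 4.69%, Gm12715 had 3.64%, and Gm7536 and Tpt1-ps3 had none.

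Members were closer copies than the processed pseudogenes that did not reach the minimum. Their median identity to the parent was 99.4%, against 89.4% for 8199 other processed pseudogenes with a parent, and 183 members (59.4%) stood at 99% or more, against 4.196% of the others. In 56 members the match was perfect over the whole length. The median share of own words was 10.3%, against 85.8% for the others, and 73 members (22.7%) had none, against 4.05% of the others. The parents of members had a median of 54.9 TPM, and those of the other pseudogenes 37.0 TPM. These are descriptions over loci, many of which share a parent, and no test was made.

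**Figure D1:**
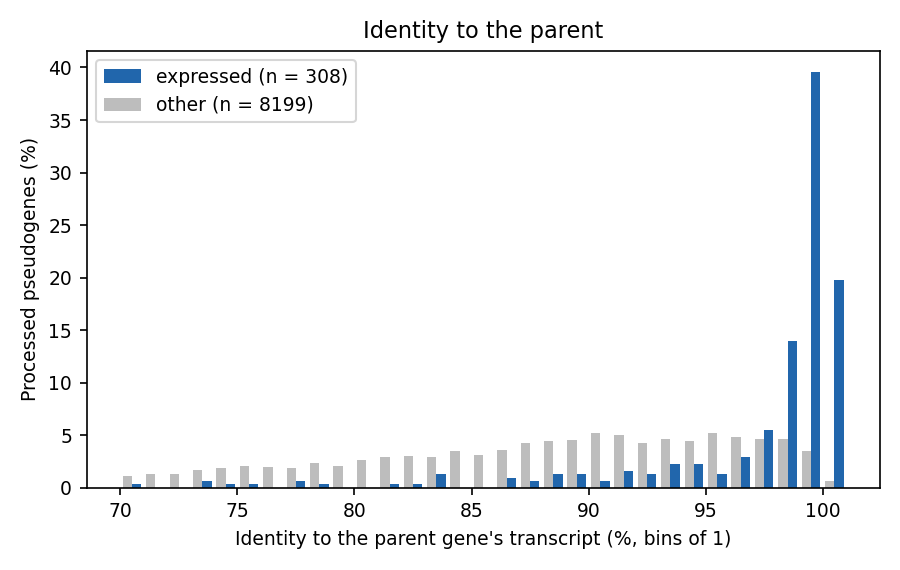
Identity of processed pseudogenes to the transcript of their assigned parent, in bins of 1% (horizontal axis), as a percentage of each set (vertical axis); blue bars are the 308 expressed members with a parent and grey bars the 8199 others. The blue bars are concentrated at 98% and above, and the grey bars are spread over the range with a median of 89.4%.

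In all, the members held few of the counts. They took 0.09996%, 0.0915% and 0.0948% of the alignment-derived counts in replicates 1, 2 and 3, a mean of 0.0954% ± 0.00424 (SD, n = 3 libraries), and 0.112%, 0.110% and 0.0948% of the read-derived counts. The read-derived totals include Gm12896 and Gm12895, 2 loci flagged below that held 4.93%, 7.83% and 15.1% of them. The 10 highest members held 41.5% of the members' alignment-derived counts. Compared per length, the median member stood at 2.13% of its parent's TPM in the alignment-derived table and at 0.285% in the read-derived table. In 27 members the alignment-derived TPM was above that of the parent.

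The highest member was Gm12250, at chromosome 11, 58187739 to 58189012, which overlaps no other gene. This locus encodes Irgb10, an interferon-inducible GTPase that acts against intracellular bacteria, although the annotation lists it as a processed pseudogene. It had 3238, 4518 and 4578 alignment-derived counts in replicates 1, 2 and 3, and 4769, 6354 and 6543 read-derived counts. Every one of its words of 31 bases was its own, and no parent was assigned, its best alignment having 68.4% identity. Its values were close in the 2 tables, with a mean log2 ratio of read-derived to alignment-derived CPM of 0.25 ± 0.13 (SD, n = 3).

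Gm6545 lies in an intron of A330040F15Rik, on its strand, on chromosome 19, so its reads and those of that intron cannot be told apart. It had 3852, 2812 and 3908 alignment-derived counts and 4792, 3503 and 4950 read-derived counts, a log2 ratio of 0.05 ± 0.10. Its alignment-derived level was above that of its closest coding gene, at 184% of the TPM of Fam111a. Of the next members, Gm6548 differed little between the tables, with 812, 1404 and 1374 alignment-derived and 881, 1513 and 1485 read-derived counts. The Eef1a1 gene itself had 69827 to 117235 alignment-derived counts, so Gm6548 stood at 2.08% of its TPM in 1 table and 2.12% in the other.

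The other 7 of the 10 highest were copies with few or no own words, and the gap between their values in the tables varied. Rps23-ps1 lies opposite an exon of Gm5148 and Gm12715 overlaps an exon of Gm22801, so their reads may be shared with those genes. Tpt1-ps3 had 1313, 1860 and 598 alignment-derived counts and 4299, 7771 and 3534 read-derived counts. Gm10123, identical to Ppia, the gene of the peptidyl-prolyl isomerase cyclophilin A, had 910, 1172 and 703 alignment-derived counts and 4108, 9034 and 6299 read-derived counts. Both copies were at least 2-fold higher in the read-derived table in every library. Gm7536, the copy of Rpl27a, had 981, 1977 and 1474 alignment-derived and 2073, 5318 and 3441 read-derived counts. Rps23-ps1, identical to the small-subunit gene Rps23, had 720, 1413 and 991 against 1421, 3409 and 2477. Rpl31-ps8, identical to the large-subunit gene Rpl31, differed little, with 688, 1311 and 889 against 731, 1431 and 972. On CPM these 3 ribosomal protein gene copies were not 2-fold apart in every library, and on TPM the mean log2 ratios of Gm7536 and Rps23-ps1 were -0.28 and -0.34, where the all-gene median was -1.07.

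Morf4l1-ps1 and Gm12715 went the other way. Morf4l1-ps1, in an intron of Lpp, had 842, 1772 and 1086 alignment-derived counts but 29.5, 978 and 54.0 read-derived counts, so the tables differed far less in replicate 2 than in the other libraries. Gm12715 had 457, 1065 and 829 alignment-derived counts and only 10.2, 20.3 and 5.52 read-derived counts, a log2 ratio of -6.34 ± 1.02. Its parent Actg1 had 37511 to 78902 alignment-derived and 38898 to 82440 read-derived counts, which put Gm12715 at 2.42% and 0.0408% of the parent's TPM in the 2 tables.

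**Figure D2:**
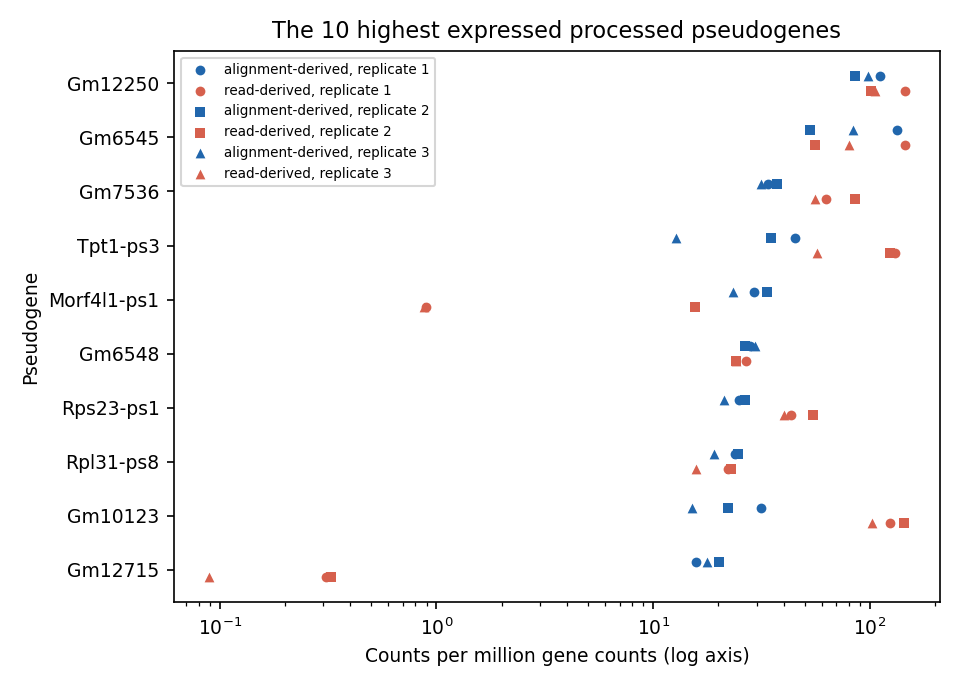
The 10 members with the highest mean expected count (vertical axis) and their CPM over gene rows in each library (horizontal log axis), blue for the alignment-derived and red for the read-derived table, with a marker shape for each replicate. Gm12250, Gm6545, Gm6548 and Rpl31-ps8 lie close together in both colours, Gm10123 and Tpt1-ps3 have red markers to the right, and Gm12715 and Morf4l1-ps1 have red markers to the left.

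Across the 322 members found in both tables, 141 (43.8%) were at least 2-fold lower in the read-derived table in every library, on CPM over gene rows with 0.5 counts added. The same call was met by 1.72% of 13615 genes with a mean expected count of 10 or more, members included, and by 0.338% of 11530 protein-coding genes. In the other direction 14 members (4.35%) were at least 2-fold higher in every library, against 1.09% of all genes and 0.295% of protein-coding genes, and 167 members met neither call. Because the rule used the alignment-derived counts, nothing is read from these shares beyond their size. The median log2 ratio over members was -1.52, with -1.52, -0.99 and -1.12 in replicates 1, 2 and 3. That over all genes was -0.16, with -0.10, -0.14 and -0.24. The read-derived totals include Gm12896 and Gm12895, which lowers the read-derived CPM of every other gene, most in replicate 3. Subtracting each library's all-gene median takes out such a shift. The members' median was then -1.36, with 136 lower and 17 higher. Among the 112 members with a mean of 50 or more expected counts, the median without this subtraction was -0.40, with 41 lower and 9 higher.

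The size of this difference depends on how low levels are treated. With TPM and 0.5 TPM added, the all-gene median fell to -1.07 and 33.0% of all genes were called lower. With that median subtracted, 31 members were lower, 13 were higher and the members' median was 0.27. The median member had 0.882 TPM and 106 members were under 0.5 TPM, and adding 0.5 TPM shrinks such ratios by construction. With 0.01 TPM added, 137 were lower, 15 were higher and the median was -1.20.

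The table difference followed the share of own words. The share edges were chosen after the values were seen. Among 39 members with over 60% own words, none was lower, 1 was higher, the median log2 ratio was 0.15, and all 39 had a mean of 10 or more read-derived counts. Among 52 members with over 30% to 60%, 22 were lower and the median was -0.93. The difference was largest in the 2 groups below, where 48 of 73 members with over 10% to 30% and 45 of 85 members with over 0% to 10% were lower, with medians of -3.38 and -3.31. Members without an own word were mixed, with 26 of 73 lower, 10 higher and a median of -0.55. They ranged from -10.04 to 4.12, the widest range of the 5 groups.

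**Figure D3:**
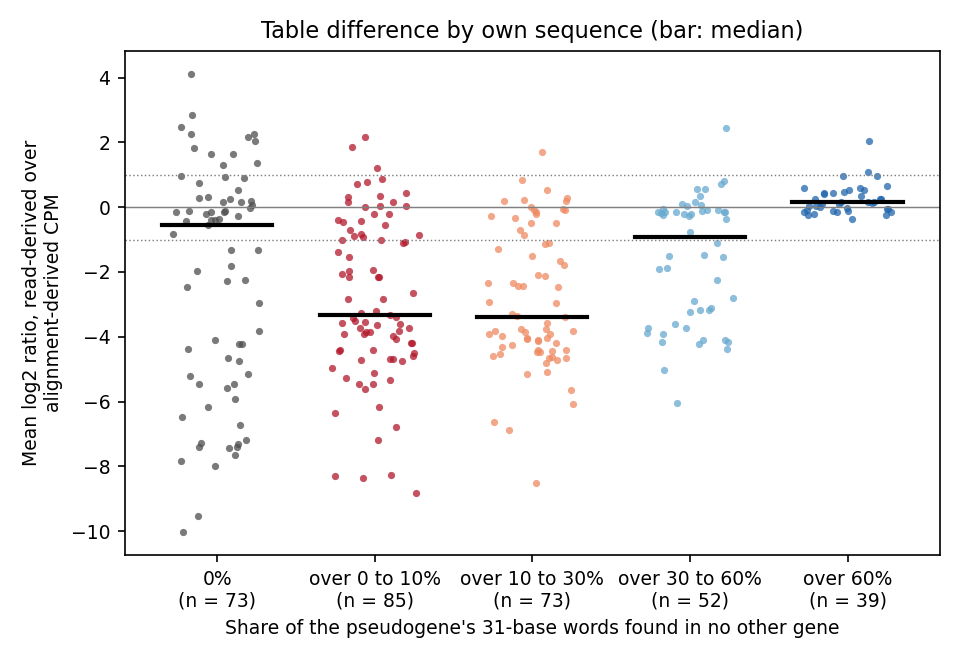
Mean log2 ratio of read-derived to alignment-derived CPM over the 3 libraries (vertical axis) for members grouped by the share of their words of 31 bases found in no other gene (horizontal axis); points are pseudogenes, bars medians and dotted lines 2-fold differences. The group with over 60% own words stays near 0 with a median of 0.15, while the groups from over 0% to 30% have medians below -3.

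The identity to the parent told the same members apart. None of 27 members at 70% to 90% identity was lower, against 5 of 38 from over 90% to 97%, 43 of 61 from over 97% to 99%, and 76 of 121 above 99% but short of a perfect match. At 100% identity, 17 of 61 were lower and 10 were higher. The spread that the alignment-derived tables themselves attach to an estimate within a library, the posterior standard deviation, was a median of 10.7% of the count over members and 0 over protein-coding genes. It was 21.6% for members without an own word, 17.2% with over 0% to 10%, 12.1% with over 10% to 30%, 1.84% with over 30% to 60% and 0 above that. Identity, own words and this spread describe the same sequences and are not separate evidence.

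**Figure D4:**
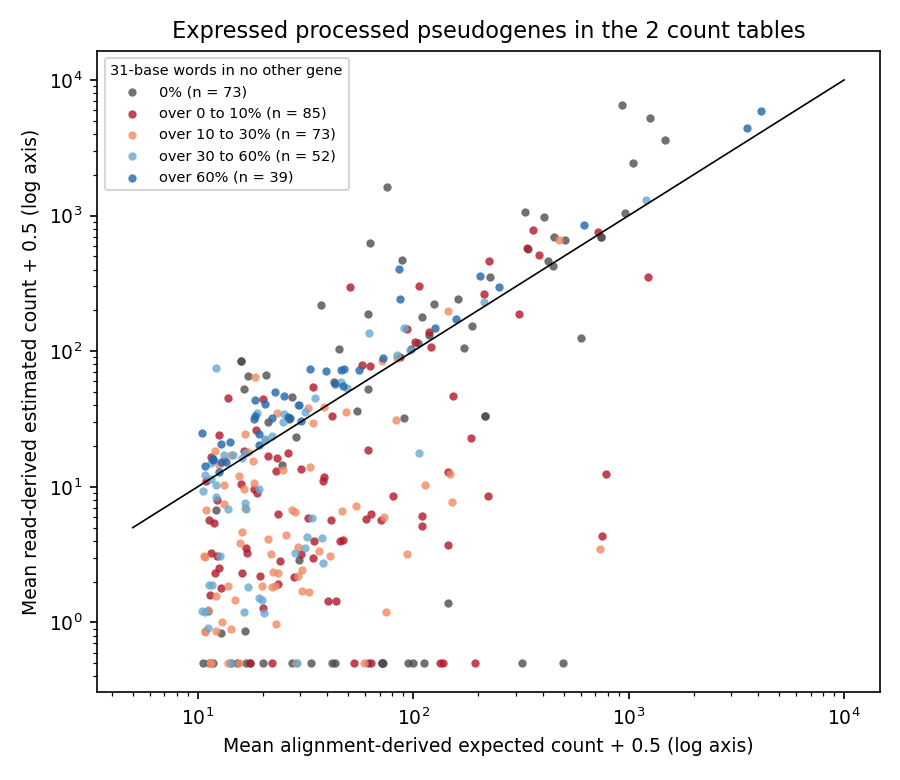
Mean alignment-derived expected count (horizontal log axis) against mean read-derived estimated count (vertical log axis), each with 0.5 added, for 322 members coloured by their share of own words; the line marks equal counts. Dark blue points, with over 60% own words, lie along or just above the line, and the points with fewer own words extend down to the row of members listed at about 0 read-derived counts.

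A total of 59 members averaged under 1 read-derived count, 34 of them listed at 0 in every library. The 5 members with the lowest ratio among those with a mean of 50 or more expected counts all had close parents. Rps6-ps4 is identical to Rps6, the small-subunit protein phosphorylated after growth signals, and had 196, 627 and 665 alignment-derived counts. Its read-derived counts were at 0 in all 3 libraries after rounding. Against a floor of 3 counts over the 3 libraries together, its listed CPM was at least 606-fold lower. The same floor was used for Rpl15-ps3 and Gm2423 below and covers counting error only. It leaves out the uncertainty of splitting reads shared with the parent. Rpl15-ps3, identical to the large-subunit gene Rpl15, had 202, 412 and 346 counts against 0 in every library, at least 391-fold lower. Gm2423, at 99.7% identity to Ywhaq, a gene of the 14-3-3 phosphoprotein-binding family, had 123, 250 and 208 against 0, at least 237-fold lower. Read-derived counts were not quite at 0 for the other two. Gm7964, a copy of the RNA-binding protein gene Hnrnpk at 99.2% identity, had 420, 931 and 858 alignment-derived and 5.25, 3.77 and 0 read-derived counts. Gm13509, a copy of the clathrin adaptor gene Ap2m1 in an intron of Mbd5, had 523, 1000 and 726 against 0, 7.15 and 4.402. These 5 were picked as the lowest ratios, so their separation between the tables is a description.

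Of the 14 members that were higher, 10 had no own word. Rpl28-ps1, identical to the large-subunit gene Rpl28, stood farthest out, with 105, 59.99 and 59.8 alignment-derived counts and 961, 2266 and 1637 read-derived counts, a log2 ratio of 4.12 ± 1.01. Gm10052, identical to Hnrnpa1, the gene of an RNA-binding splicing regulator, had 40, 69.4 and 79.2 against 233, 656 and 1000. Gm10123, described above, came next at 2.48 ± 0.43. Gm4332, with 1.58% own words and Rps20 as parent, had 49.1, 57.5 and 44.8 against 173, 442 and 278. Gm19253 was the exception to the pattern by own words, since 86.6% of its words were its own and its parent Mrps36 was 94.1% identical. It had 41, 134 and 82 alignment-derived counts and 295, 554 and 353 read-derived counts.

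Members are a small part of their families, taken as the parent and all its processed pseudogenes. Over 252 families with a member, the members held a median of 1.08% of the family's alignment-derived counts and 0.247% of its read-derived counts. The median log2 ratio was -2.07 for the members summed per family and -0.19 for the parents. In most families the total is therefore set by the parent and does not show where a lower member's counts went. In a few families the member's share was large in the read-derived table. Gm10123 went from 4.29% to 27.7% of the Ppia family, and Ppia had a log2 ratio of -0.67 against -0.26 for the family. Rpl28-ps1 went from 1.77% to 29.96% of the Rpl28 family, and Rpl28 had -0.69 against -0.20 for the family. Other families differed in kind. The members of the Rpl12 family went from 7.47% to 71.6%, with -4.89 for Rpl12 and -3.06 for the family. Those of the Ptp4a1 family went from 21.1% to 52.7%, with 0.09 for Ptp4a1 and 0.88 for the family. The ribosomal protein genes Rps12, Rpl12 and Rpl10, which are parents of members, had ratios of -4.66, -4.89 and -2.50 themselves.

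The parents most often represented were Gapdh with 6 members of 218 processed pseudogenes, Eef1a1 with 4 of 29, Hmgb1 with 4 of 149, Rpl23a with 4 of 78 and Hspa8 with 3 of 18. Gapdh encodes a glycolytic dehydrogenase, Hmgb1 a chromatin protein that is also a danger signal, and Hspa8 a constitutive chaperone. Gm10359 and Gm12671, both identical to Gapdh, had the same estimates as each other in every library of both tables, 154, 199 and 294 alignment-derived counts against 94.5, 0 and 3.48 read-derived counts. Equal values in every library were also carried by Gm11518 and Rpl27-ps3 and by Gm15801 and Gm8783. The values within such a pair are not independent of each other. Each locus is still listed with its own count, and family totals include both. Gm15801 and Gm8783 are both among the 14 higher members, which are 13 with equal pairs taken once, 9 of them without an own word. Gm7336, the highest Gapdh copy, had 290, 1013 and 502 against 72.6, 111 and 192. The Hmgb1 copy Gm15387 was higher in the read-derived table in every library, with 303, 382 and 532 against 546, 1359 and 1025, but not 2-fold in each on the CPM scale.

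Copies of cytosolic ribosomal protein genes made up the largest class, with 73 members of 2186 processed pseudogenes (3.34%, against 3.25% over all processed pseudogenes). Of the 85 ribosomal protein genes on the list, 82 had a processed pseudogene and 50 had a member. In this class 46 members were lower, 3 were higher and 24 met neither call, with a median log2 ratio of -3.41. Copies of translation factor genes gave 4 lower of 9 (median -2.15), of glycolytic genes 4 of 12 (-1.58), of cytoskeletal genes 3 of 7 (-1.65), of mitochondrial energy genes 4 of 6 (-3.17) and of chaperone and cyclophilin genes 3 of 6 (-1.06). Copies of chromatin and nuclear protein genes gave 3 lower of 15 (0.15). The 15 members without an assigned parent had none lower and a median of -0.01 over the 14 in both tables. These counts over small classes were not tested against each other.

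A few members resemble interferon-inducible GTPases, which defend cells against intracellular pathogens and are known to be induced in activated macrophages. They were singled out after their values were seen. BC023105, at 94.4% identity to Gm4841, had 840, 447 and 574 alignment-derived and 1166, 583 and 801 read-derived counts. Gm5970, at 88.1% identity to Iigp1, had 130, 162 and 458 alignment-derived and 149, 181 and 560 read-derived counts. It lies in an intron of Gm4951 on the same strand, so its reads and those of that intron cannot be told apart. Gm18852, which aligned in part to the GTPase gene Gvin1 and whose transcript overlaps exons of Gm4070 and Gm20663 on the same strand, had 387, 438 and 1331 against 291, 371 and 1601. With Gm12250, all 4 stayed within 2-fold between the tables in their mean ratio. Between libraries the TMM-scaled values differed 3.55-fold for BC023105, which was highest in replicate 1, and 3.13-fold for Gm5970 and 3.37-fold for Gm18852, which were highest in replicate 3. Gm12250 varied 1.36-fold.

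Differences between libraries were tested on the expected counts that also chose the members. The rule used their mean, which 1 high library can carry over the minimum, so the choice of members bears on the result. A chi-square test of homogeneity on rounded expected counts against TMM-scaled library sizes, Benjamini-Hochberg adjusted over 13636 genes, called a gene at an adjusted p under 0.05 and a ratio of 2 or more between the highest and lowest library. It covers counting error only and leaves out the uncertainty of splitting shared reads. Of 323 members, 124 (38.4%) differed, against 16.3% of all genes and 8.2% of protein-coding genes. They were highest in replicate 3 in 63 members (19.5%, against 11.7% of all genes and 4.08% of protein-coding genes), in replicate 2 in 36 and in replicate 1 in 25. Of the members, 57 reached the minimum only with replicate 3, and 43 of these were called and highest there. Among the 266 members with a mean of 10 or more in replicates 1 and 2 alone, 80 (30.1%) differed and 20 (7.52%) were highest in replicate 3, against 10.1% and 5.2% of 12596 genes chosen in the same way, a choice that disfavours loci high in replicate 3. Without replicate 3, 45 of 269 members differed, against 4.79% of all genes, and without replicate 1, 82 of 320 did, against 14.4% of all genes.

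The members highest in replicate 3 lay mostly in introns of other genes, and most of them entered through that library. Of 105 members placed in an intron of another gene, on either strand, 57 differed and 42 of these were highest in replicate 3. Of these 42, 33 reached the minimum only with replicate 3. Among the 70 intronic members with a mean of 10 or more in replicates 1 and 2, 23 differed and 9 were highest in replicate 3. Of 191 members overlapping no other gene, 57 differed and 14 were highest in replicate 3, and among the 172 with that mean in replicates 1 and 2, 49 differed and 6 were highest there. The 25 intronic members with over 60% own words had median counts of 3, 3 and 54 in replicates 1, 2 and 3, and 18 of them were members only through replicate 3. The rule chose these 18 by their height in that library, so that height is a description. Of the other 7, 5 differed and 3 were highest in replicate 3.

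Gm17230, an 83.9% identical copy of the nucleolar protein gene Mybbp1a in an intron of Pde7b on the opposite strand, had 9, 3 and 365 alignment-derived counts and 11, 3 and 426 read-derived counts in replicates 1, 2 and 3. These 4 intronic loci passed the minimum through replicate 3. Gm19040, in an intron of the autophagy gene Atg7, had 0, 2 and 139 counts. Gm17849, in an intron of the oxysterol-binding protein gene Osbpl8, had 3, 9 and 130, and Gm47727, in an intron of Aoah, the gene of a lipopolysaccharide-deacylating enzyme, had 1, 3 and 94. In each the replicate 3 value stood far above the other two. Malat1 and Neat1 were also highest in replicate 3, and their relation to the intronic members was not tested. Gm19040, Gm17849 and Gm47727 lie on the strand of the gene around them, so reads from them and from the surrounding intron cannot be told apart with or without strand. Own words were compared with transcripts and not with introns. For Gm17230, on the opposite strand, the sources used here do not say whether counting used strand.

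**Figure D5:**
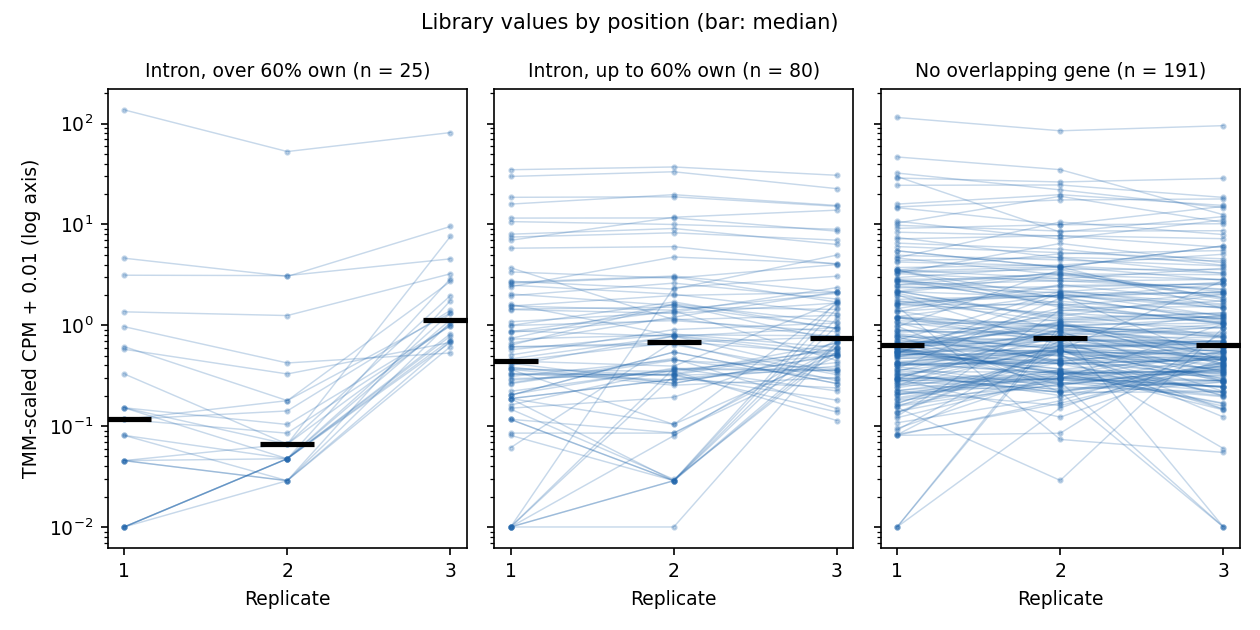
TMM-scaled CPM with 0.01 added (vertical log axis) of members in replicates 1, 2 and 3 (horizontal axis), for intronic members with over 60% own words, other intronic members and members overlapping no gene; each line joins the values of 1 pseudogene and bars are medians, with no order implied among replicates. In the first panel most of the 25 lines sit higher in replicate 3, through which 18 of them reached the minimum, and the medians of the 191 members in the last panel lie close together.

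Among members with a mean of 50 or more, the 5 with the largest ratio between libraries were of different kinds. Gm17230 had a ratio of 116 (chi-square, adjusted p = 1.33e-124). It passed the minimum only through replicate 3, so the rule chose it by its height there and the p-value is no separate evidence. Gm49037, identical to Mapk6 and in an intron of Mapk8, had 0, 125 and 147 alignment-derived counts. Its estimates came with a posterior standard deviation of 37.0% of the count, and the read-derived values were 0, 33.2 and 61.8. Gm21370, a copy of the phosphatase gene Ctdsp1 that overlaps an exon of Gm36161 on the opposite strand, had 22.3, 41.2 and 206, and the read-derived values of 35.6, 56.6 and 351 kept that order. Gm12751, identical to the RNA polymerase subunit gene Polr1d, had 10.2, 98.8 and 54.7 against 23.1, 83.6 and 0.000519, so the library with the lowest value changed with the table. Rps12l1, identical to Rps12, had 73.3, 41.2 and 182 alignment-derived counts and 0 read-derived counts in every library. Among the 10 highest members, Gm6545, Tpt1-ps3 and Gm10123 differed between libraries, and Gm6548 was the least variable, with 28.8, 26.4 and 28.6 TMM-scaled CPM (adjusted p = 0.0581).

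A count minimum in the read-derived table would have picked other loci. Of the members, 172 (53.3%) had a mean of 10 or more read-derived counts. They make up 41.5% of the 414 processed pseudogenes at or above that level, and 242 others were outside the members. Those 242 had a median of 64.2% own words and a median identity to an assigned parent of 90.2%, and 107 of them were listed at 0 expected counts in every library.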

How the data were processed

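Total RNA-seq was measured in 3 libraries of 1 group. Per the deposited README text, the authors made expected counts and TPM per gene from transcriptome alignments, and estimated counts and TPM per transcript from the reads, on mm10 with annotation M21. What aligned and quantified the reads, and whether strand was used, was not given in the sources used here. Both tables split shared reads by estimation. Read-derived estimated counts were summed per gene, and expected counts were rounded for the chi-square test only. Rows naming no gene held 0.418%, 0.248% and 0.165% of expected counts and were left out. The deposited posterior standard deviation of a count is the authors' own. The read-derived values lack 86 genes, 1 member among them.

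Parents came from blastn 2.17.0 (word size 15, plus strand) against GENCODE M21 protein-coding transcripts, leaving out genes that overlap the pseudogene. TMM factors came from edgeR 4.0.16 in R 4.3.3 and size factors from DESeq2 1.42.0. Other steps ran in Python 3.11.15 with pandas 2.3.3, scipy 1.17.1, numpy 2.4.6 and, for figures, matplotlib 3.10.9. The chi-square test and word counts were tested on simulated data. Members, lists and tests were chosen with earlier results of these data known. Named were the 10 highest members, the 5 lowest and 5 highest ratios and the 5 largest library ratios among members with a mean of 50 or more, the 5 parents with most members, and the loci around the minimum. Others are said to be chosen after their values were seen, and the families, members near 0, intronic members and 31-base groups were examined that way too. A count of 0 allows 0.104, 0.0565 and 0.0641 alignment-derived CPM in replicates 1, 2 and 3, from 3 counts, covering counting error only. Alternatives were other minimums, folds, scalings, added counts, sequence thresholds and each replicate left out.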

Additional observations from a re-analysis of the deposited data

Results flagged for a closer look

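Gm12896 and Gm12895, 2 processed pseudogenes outside the members, were listed at 0 expected counts in every library and at very high counts in the read-derived table. Gm12896 had 815267, 2453520 and 4675250 read-derived counts in replicates 1, 2 and 3. Gm12895 had 815267, 2452380 and 4675250. They lie on chromosome 4 at 122122847 to 122123072 and 122455210 to 122455435, are 226 bases long, have 1.02% own words each and no assigned parent. Together they held 4.93%, 7.83% and 15.1% of the read-derived counts of gene rows, and all other processed pseudogenes together held 0.144%, 0.133% and 0.188%. A count of 0 allows up to 3 counts for counting error only, and these values are above that. The allowance does not cover how shared reads were handled, and the difference has no test. The next-highest processed pseudogene outside the members had a mean of 4545 read-derived counts. Single libraries could not be screened for outliers, since that needs groups of at least 4.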

How the results depend on the processing

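Minimums of 5 and 20 gave 524 and 206 expressed processed pseudogenes, and 10 or more counts in every library gave 200, against 323. At 1.5-fold 23 members were higher and at 4-fold 4, against 14. The median log2 ratio was -1.24 on counts as deposited and -0.80 on TPM, where 2 were higher. With TPM centred on the median of all genes, 31 were lower and the median reversed to 0.27, which the added 0.5 TPM accounts for in part, since with 0.01 TPM added it was -1.20. Among the 190 members overlapping no other gene 6 were higher and the median was -2.64. Among the 112 with a mean of 50 or more 41 were lower, 9 were higher and the median was -0.40. Fewer members lower the counts by construction but do not set the medians. The median difference was thus smaller among members with more counts. Between libraries, 30 of 112 members with a mean of 50 or more differed (7.07% of all genes), and 67 of 323 at 4-fold (9.06%). The main setting gave 124 (16.3% of all genes). With each replicate left out 45 to 93 members differed, against 4.79% to 14.4% of all genes. The read-derived table gave 107 of 174, against 32.5% of all genes. The members' share was 0.105% of read-derived counts and 0.177% of TPM. Symbols gave 57 parents. The median share of own words was 17.7% with words of 50 bases and 25.6% with 75. The ranges with a replicate left out were 278 to 394 members, 149 to 150 lower, 15 to 16 higher, and -1.63 to -1.29 for the median. The cause was not tested except where stated. Of 243 values for single named members, 193 moved by less than the spread between libraries, 50 moved more, and none that was called changed sign. No paired analysis was possible because there is 1 group. The centred scalings were chosen after seeing the data. Depth limits members near 10 counts, where 1 library can decide a value.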

Other observations

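A few members had a TPM near or above that of the parent in at least 1 table, although the parent held more counts. Gm7536 stood at 106% of the TPM of Rpl27a in the alignment-derived table and at 298% in the read-derived table, and Rpl31-ps8 stood at 108% and 90.6% of Rpl31. Rps23-ps1 was at 48.5% and 124% of Rps23. These copies are perfect matches to the parent over their length, so these percentages are estimates of how shared reads were split, compared per length.

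By position, the members lower in the read-derived table were 97 of 190 with no overlapping gene, 17 of 54 in an intron on the opposite strand, 16 of 51 in an intron on the same strand, 8 of 17 at an exon on the opposite strand and 3 of 10 at an exon on the same strand. The median shares of own words were 9.57%, 14.4%, 17.6%, 0 and 2.54% in the same order. Members lay outside other genes in 59.1%, against 71.3% of the other processed pseudogenes. These are values over loci, with no test.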
